A study of Mus musculus with 6 samples.

Results

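The small proline-rich (Sprr) genes encode short proteins of epithelial surfaces. Their members analysed here are Sprr1a, Sprr1b, Sprr2a1, Sprr2d, Sprr2e, Sprr2h and Sprr3, taken by gene symbol from a deposited table of transcript abundance in mouse colon. They are 7 of the 17 Sprr genes in that table and of 30419 genes in all. The 7 were chosen by their TPM in these same R1ko and WT libraries (R1ko against WT values already known), so those values are given as a description, with no p-value for a member. RNA was taken from 3 R1ko colons, from mice with the genotype Tnfrsf1a-/-, and from 3 WT colons. All mice were males aged 12 weeks, every sample is labelled with the strain C57Bl/6J, and no other allele, agent or treatment is named for either group. Tnfrsf1a encodes TNFR1, the main signalling receptor for the cytokine tumour necrosis factor, and no Cre or tissue-restricted allele is named, so the loss is not limited to a cell type. The sources used here do not say whether R1ko and WT mice were littermates, so strain background and housing cannot be told apart from the genotype. Whether a colon sample ended at the rectum or took in the anal canal is also not given there.

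Sprr proteins are precursors of the cornified envelope, the protein shell under the membrane of dying squamous cells. Transglutaminases cross-link them through glutamine and lysine residues at the ends of the protein, and a run of short proline-rich repeats lies between those ends. The genes stand side by side in the epidermal differentiation complex, next to loricrin, involucrin, filaggrin and the S100 genes. Outside the skin, Sprr1a is known from injured neurons and stressed heart muscle, Sprr3 from the lining of the oesophagus, and Sprr2a from the intestinal epithelium of mice, where bacteria induce it and its protein acts against Gram-positive bacteria.

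In mm10 all 17 genes lie on chromosome 3 between 92215799 and 92500493, a span of 285 kb, with 13 on the plus strand and 4 on the minus strand (GENCODE M21). The Sprr2 genes form the plus-strand block. Sprr2a1 stands first in it at 92215799 to 92221911, then come Sprr2d at 92339140 to 92340873, Sprr2e at 92352143 to 92353449 and Sprr2h at 92385685 to 92387324. Sprr1b (92436809 to 92438789), Sprr3 (92456502 to 92458720) and Sprr1a (92483952 to 92485895) are read from the minus strand. Each of the 7 is annotated as protein coding. The annotated coding sequences run from 231 bases in Sprr2e to 717 bases in Sprr3, and codons that begin with CC, the proline codons, made up 20.6% of Sprr3 and 42.6% of Sprr2h, the extremes among the 7.

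As deposited, Sprr2d was the member whose values in the 2 genotypes did not overlap. It was 2.91-fold higher in R1ko colons by the ratio of means, Sprr2a1 was level, and Sprr1a, Sprr1b, Sprr3 and Sprr2h had higher means in R1ko with overlapping values. After scaling, described next, Sprr3 did not overlap either. Of the 14284 genes tested, 3.17% lay wholly higher in R1ko as deposited and 9.3% after scaling. The unit is TPM, a transcript's share of all transcript molecules after division by its length, so levels may be compared between genes. Read depth cannot be had from it. WT replicate 2 stood apart. Transcripts with no gene held 27.4% of its TPM, against 1.86 to 7.23% in the other libraries, which lowers every other value there. Values after median-of-ratios scaling are therefore given beside those as deposited (factors 1.06, 0.918 and 1.07 for R1ko and 1.13, 0.786 and 1.10 for WT).

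The full-length Tnfrsf1a transcript checked the labels. ENSMUST00000032491 had 23.5, 20.4 and 25.6 TPM in R1ko colons, against 67.6, 39.9 and 59.1 TPM in WT colons. The groups did not overlap, although the gene's summed TPM did (44.2 ± 6.76 in R1ko and 59.4 ± 13.9 in WT, SD, n = 3 each). A shorter Tnfrsf1a transcript, ENSMUST00000125880, ran the other way, at 18.0, 12.4 and 14.1 TPM in R1ko and 1.20, 1.20 and 0.890 TPM in WT. The labels do not name the exons removed.

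Before fold changes, the sequence that separates the copies was read from the GENCODE M21 transcripts, since kallisto assigns reads through words of 31 bases. All such words of Sprr1a, Sprr1b and Sprr3 were found in no other gene. Sprr2h-201 had 97.2% of its words in no other gene and 66.5% in no other transcript. Sprr2d had 89.7% and Sprr2e 78.9% of their words in no other gene. Sprr2d shared more words with Sprr2e than with any other gene, 7.83% of its own. Sprr2a1 had 3.06% of its words to itself and shared 93.8% with Sprr2a2. The coding sequences of Sprr2a1 and Sprr2a2 were identical over 252 bases, and that of Sprr2a3 was 98.8% identical to Sprr2a2. Values of the 3 Sprr2a genes therefore cannot be separated with certainty. The annotation release behind the deposited values is not named, and it need not be M21.

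**Figure D1:**
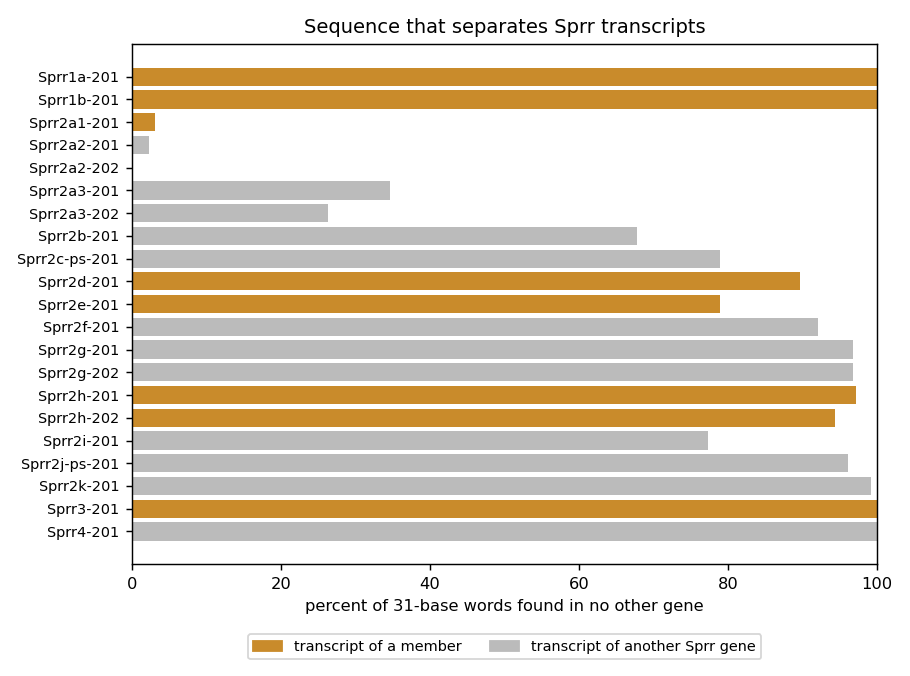
Share of the 31-base words of each annotated Sprr transcript that occur in no other gene (x axis, percent), one bar per transcript, members in ochre and the other Sprr genes in grey. Sprr1a, Sprr1b and Sprr3 reach 100%, Sprr2d 89.7%, Sprr2a1 3.06%, and Sprr2a2-202 has none.

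Sprr2d, a Sprr2-type envelope precursor, measured 26.0, 25.1 and 31.5 TPM in R1ko colons, against 10.5, 5.73 and 12.2 TPM in WT colons. The lowest R1ko library lay above the highest WT library, as in 3.17% of the genes tested. Means were 27.5 ± 3.51 and 9.45 ± 3.33 TPM (SD, n = 3 each). After median-of-ratios scaling the values were 24.4, 27.3 and 29.6 in R1ko and 9.25, 7.30 and 11.1 in WT. The groups again did not overlap, as in 9.3% of the genes tested on the higher side. The log2 fold change on the log2(TPM + 0.5) scale was 1.55 ± 0.24 (SE), 1.52 ± 0.15 after scaling and 1.24 ± 0.15 without WT replicate 2. With the members chosen on this contrast, a call on one of them restates the choice and is given as a count alone. The limma fit over all genes used a Benjamini-Hochberg adjusted p of 0.05. Of the 6 members tested, all but Sprr2e, 1 was called, Sprr2d, where 0.091% of the 14284 genes tested were called higher in R1ko. The count was also 1 after scaling (0.035% of genes called higher) and without WT replicate 2 (0.0279%). In the fit over 31056 transcripts, where 0.029% were called higher, it was 0, with ENSMUST00000047477, the single transcript of Sprr2d, at 1.55 ± 0.27 (SE). Nothing is read from these shares.

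The level of Sprr2d relative to other epithelial genes of the same library does not depend on how libraries are scaled. Sprr2d over Sprr1a was 0.218, 0.273 and 0.238 in R1ko colons, against 0.088, 0.148 and 0.108 in WT colons. Sprr2d over Sprr3 was 1.18, 1.12 and 1.02 in R1ko and 0.579, 0.769 and 0.553 in WT. For each 1000 TPM of summed squamous markers, Sprr2d had 12.4, 14.7 and 15.3 TPM in R1ko and 4.70, 6.49 and 6.79 TPM in WT. None of these ratios overlapped between the groups, WT replicate 2 included. They are built from values known when the members were chosen, so they are description only. The share of all genes whose ratios would lie apart was not computed. Sprr2d also took 5.91, 6.07 and 6.49% of the summed member TPM in R1ko, against 2.34, 1.88 and 2.81% in WT.

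**Figure D2:**
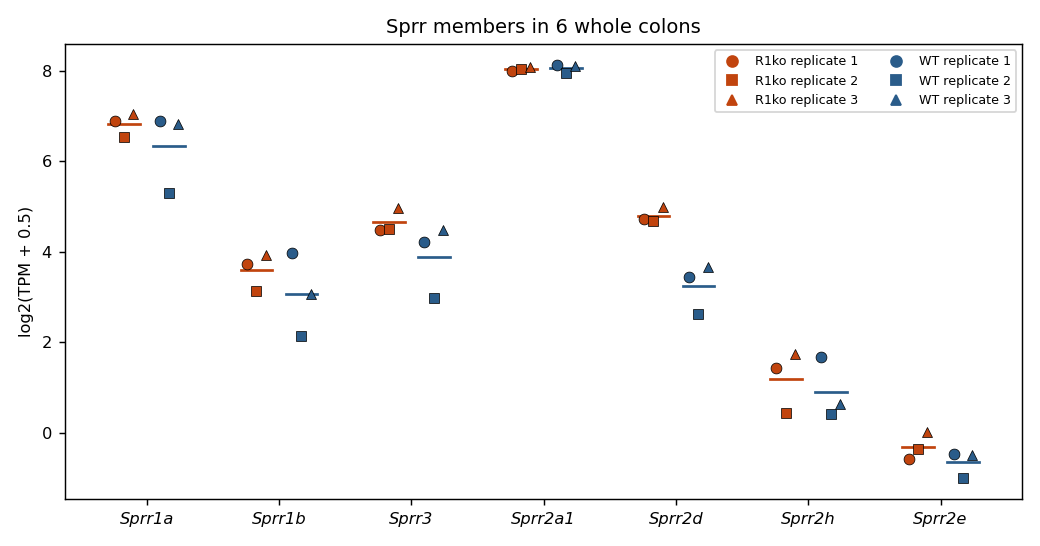
Level of each member as log2(TPM + 0.5) (y axis) in the 3 R1ko colons (red, left) and 3 WT colons (blue, right), with the symbol giving the replicate and the line the group mean. Sprr2d has no overlap between the groups, and WT replicate 2 (blue square) is the lowest library for every member.

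Sprr2e is the closest member to Sprr2d and was near absent. Its coding sequence was 84.9% identical to that of Sprr2d, and the 250 bases before its start were 88.9% identical. Sprr2e measured 0.174, 0.280 and 0.521 TPM in R1ko colons, against 0.221, 0 and 0.219 TPM in WT colons. The groups overlapped, and the mean over all libraries was too low for the test. Sprr2d thus stood at 27.5 TPM and Sprr2e at 0.325 TPM in the same R1ko colons.

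The start regions of Sprr2d and Sprr2e are printed because 2 near copies had such different levels, and that of Sprr1a as the most abundant member outside the Sprr2 block. Sequences are from RefSeq (GRCm38.p6, that is mm10), 5′ to 3′ on the gene's strand, and end at the base before the RefSeq start. The RefSeq and GENCODE starts are the same base in Sprr2d, Sprr2e, Sprr2h and Sprr3. The RefSeq start lies inside the GENCODE gene by 14 bases in Sprr1a, 10 bases in Sprr1b and 36 bases in Sprr2a1, so the last 14 bases printed for Sprr1a belong to its GENCODE transcript. Capitals mark TGANTCA (AP-1), ATTTGCAT (the octamer bound by POU factors) and TATAAA. Sprr2d is chr3:92338890-92339139 on the plus strand, Sprr2e chr3:92351893-92352142 on the plus strand and Sprr1a chr3:92485882-92486131 on the minus strand.
Sprr2d: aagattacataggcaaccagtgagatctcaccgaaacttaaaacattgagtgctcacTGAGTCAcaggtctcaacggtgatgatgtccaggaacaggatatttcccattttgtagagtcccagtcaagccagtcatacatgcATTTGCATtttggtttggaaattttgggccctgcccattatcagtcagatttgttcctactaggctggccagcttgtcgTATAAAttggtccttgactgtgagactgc
Sprr2e: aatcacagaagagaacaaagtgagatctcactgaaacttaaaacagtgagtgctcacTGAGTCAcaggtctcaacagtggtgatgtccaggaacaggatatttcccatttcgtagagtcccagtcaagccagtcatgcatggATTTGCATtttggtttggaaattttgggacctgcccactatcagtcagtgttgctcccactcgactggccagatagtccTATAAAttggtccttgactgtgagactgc
Sprr1a: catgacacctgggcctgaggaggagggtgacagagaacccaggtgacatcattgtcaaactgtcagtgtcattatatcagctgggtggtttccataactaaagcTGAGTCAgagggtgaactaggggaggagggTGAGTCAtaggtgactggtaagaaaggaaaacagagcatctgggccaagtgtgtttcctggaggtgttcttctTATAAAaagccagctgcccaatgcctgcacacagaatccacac

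Both Sprr2d and Sprr2e had TGANTCA beginning 193 bases before the start, ATTTGCAT 108 bases before it and TATAAA 29 bases before it. Sprr1a had TGANTCA 146 and 116 bases and TATAAA 43 bases before its RefSeq start, with no ATTTGCAT. From its GENCODE start these distances are 132, 102 and 29 bases, so that TATAAA lies as far from the start as in Sprr2d and Sprr2e. Searched on both strands over these 250 bases, TGANTCA was found in 5 of the 7 members (not in Sprr2a1 or Sprr3) and in 6.87% of 27025 mouse promoters. TATAAA was found in 6 of 7, all but Sprr2a1, and in 12.97% of promoters. ATTTGCAT, chosen after the letters were seen, was in 3 of 7 (Sprr2d, Sprr2e and Sprr2h) and in 1.61% of promoters. Over all 14 Sprr genes searched, TGANTCA was in 9, TATAAA in 10 and ATTTGCAT in 7. Sprr2b, Sprr2f, Sprr2i and Sprr2k, which are not members, held each of them, so these motifs are not particular to the members. GGAAG, the ETS core, was in 2 of 7 and in 63.6% of promoters, CACCC in 3 of 7 and 51.3%, and CCAAT in 4 of 7 and 34.5%. The kappaB and interferon-response (ISRE) motifs were in none of the 7 and in 1.40 and 3.04% of promoters. A match is a run of letters, not a measured binding site, and motifs can overlap.

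Sprr2h carries the same TGANTCA, ATTTGCAT and TATAAA at 198, 109 and 29 bases before its start. It was a low member, at 2.19, 0.848 and 2.84 TPM in R1ko colons, against 2.68, 0.837 and 1.06 TPM in WT colons. The groups overlapped over most of their range. Its log2 fold change was 0.29 ± 0.35 (SE), and 0.04 ± 0.45 without WT replicate 2. The short Sprr2h transcript ENSMUST00000191886 had 0.552 TPM in WT replicate 1 and 0 TPM in WT replicates 2 and 3. It had under 0.001 TPM in every R1ko library.

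Sprr1a and Sprr1b encode the cornifins, and Sprr3 encodes a longer envelope protein with more repeats. As deposited, the log2 fold changes of these genes were smaller without WT replicate 2. The median over all genes tested also fell there, from 0.03 to −0.13. Sprr1a measured 119, 92.0 and 132 TPM in R1ko colons, against 119, 38.8 and 113 TPM in WT colons. WT replicates 1 and 3 lay inside the R1ko range and WT replicate 2 far below it. The log2 fold change was 0.49 ± 0.28 (SE) over all libraries, 0.46 ± 0.28 after scaling and −0.03 ± 0.15 without WT replicate 2.

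Sprr1b measured 12.8, 8.32 and 14.8 TPM in R1ko colons, against 15.4, 3.93 and 7.87 TPM in WT colons. The highest value of all 6 was a WT library, and so was the lowest. Its log2 fold change was 0.53 ± 0.31 (SE), and 0.07 ± 0.32 without WT replicate 2. Sprr3 measured 21.9, 22.3 and 31.04 TPM in R1ko colons, against 18.1, 7.45 and 22.0 TPM in WT colons. As deposited the groups touched, WT replicate 3 lying just above R1ko replicate 1. After scaling Sprr3 had 20.6, 24.3 and 29.1 in R1ko and 15.99, 9.49 and 20.0 in WT, without overlap, as had 9.3% of genes on the higher side. As deposited that share was 3.17%, with Sprr2d the sole member in it, and 1.81% of genes lay wholly lower in R1ko, none of them a member. The log2 fold change of Sprr3 was 0.76 ± 0.28 (SE), 0.73 ± 0.26 after scaling and 0.31 ± 0.18 without WT replicate 2.

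**Figure D3:**
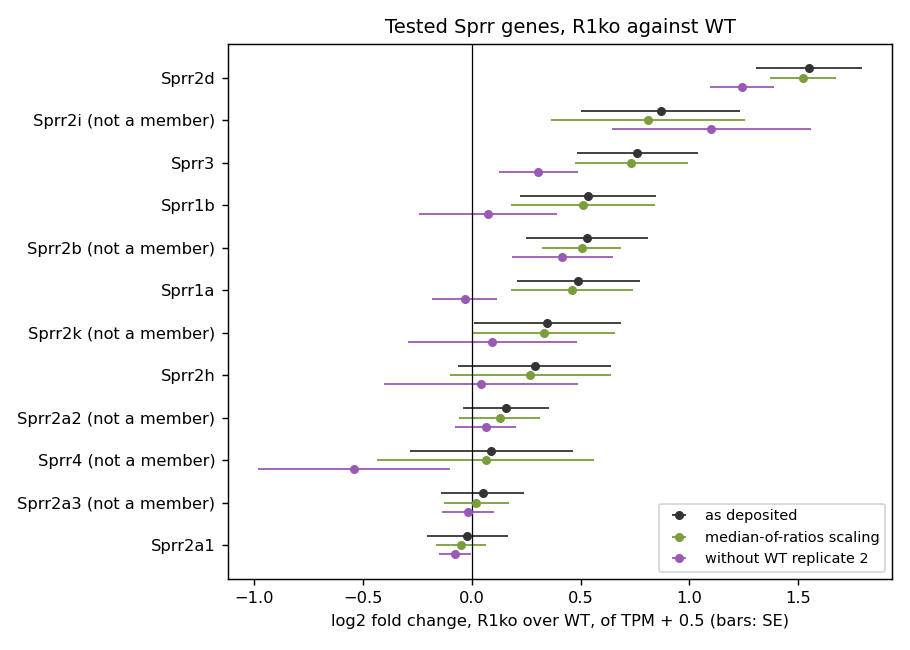
Log2 fold change of R1ko over WT on the TPM + 0.5 scale (x axis) with its SE for the 12 Sprr genes that passed the mean of 1 TPM, as deposited (black), after median-of-ratios scaling (green) and without WT replicate 2 (purple). Sprr2d lies between 1.24 and 1.55 in all 3, while Sprr1a and Sprr1b lie near 0 without WT replicate 2.

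Sprr2a1, the Sprr2a copy among the members, had the steadiest level of the 7. It measured 257, 264 and 273 TPM in R1ko colons, against 281, 248 and 277 TPM in WT colons. The R1ko values lay inside the WT range. The log2 fold change was −0.02 ± 0.19 (SE), −0.05 ± 0.11 after scaling and −0.08 ± 0.07 without WT replicate 2. As most of its sequence is shared with Sprr2a2, this level rests on few words of its own.

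Outside the members, Sprr2a2 was the most abundant gene of the whole table by mean TPM. Nearly all of it was the short transcript ENSMUST00000090871, of 722 bases, which has no 31-base word of its own. That transcript had 31878, 33273 and 38430 TPM in R1ko colons, against 27669, 26991 and 39014 TPM in WT colons. The R1ko values lay inside the WT range. Sprr2a2 held 96.2, 96.3 and 96.4% of all Sprr TPM in R1ko and 95.8, 96.2 and 96.4% in WT. The shares differed by 0.158 percentage points (two-sided exact permutation p = 0.7 over 20 relabellings, where 0.1 is the smallest p). Together the 7 members held 1.31, 1.19 and 1.21% of Sprr TPM in R1ko and 1.53, 1.08 and 1.06% in WT.

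The remaining Sprr genes were low, apart from Sprr2a3 and Sprr4. Of the 6 Sprr genes tested outside the members, Sprr2a2 included, none was called. Sprr2i, which had the largest log2 fold change of these 6, had 1.80, 0.615 and 3.12 TPM in R1ko colons, against 0.481, 1.09 and 0.478 TPM in WT colons (0.87 ± 0.37, SE, limma adjusted p = 0.9999). Sprr2b had 2.36, 2.81 and 3.45 TPM in R1ko and 1.69, 1.48 and 2.36 TPM in WT (0.53 ± 0.28, SE, limma adjusted p = 0.9999).

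Sprr4, from the far end of the cluster, had 33.6, 9.24 and 20.4 TPM in R1ko and 25.9, 6.97 and 28.6 TPM in WT. Sprr2a3 averaged 860 ± 72.6 TPM in R1ko and 834 ± 129.9 TPM in WT, and Sprr2k 2.17 ± 1.38 and 1.49 ± 0.589 TPM (SD, n = 3 each). Under the mean required for testing were Sprr2f, Sprr2g and Sprr2j-ps. Sprr2f had 0.676, 0.550 and 1.35 TPM in R1ko and 0.369, 0.186 and 0.162 TPM in WT. Sprr2g had 1.03, 0.484 and 1.20 TPM in R1ko and 0.219, 0.0829 and 0.361 TPM in WT. Both kept the groups apart at values below 2 TPM. Sprr2j-ps averaged 0.526 ± 0.1703 TPM in R1ko and 0.319 ± 0.0599 TPM in WT, and Sprr2c-ps was listed at 0 in each library.

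The summed TPM of the 7 members was 438.9, 413.3 and 486.2 in R1ko colons, against 447.1, 304.5 and 432.9 in WT colons. The groups overlapped. After scaling the sums were 413.2, 450.4 and 456.1 in R1ko and 395.5, 387.5 and 394.2 in WT, without overlap. Of single genes tested, 9.3% lay wholly higher in R1ko after scaling. The log2 difference of the sums was 0.19. It was 0.017 without WT replicate 2 as deposited, where the median log2 fold change over all genes tested was −0.13. After median-of-ratios scaling it was 0.163 with all libraries and 0.154 without WT replicate 2. It was 0.29 without WT replicate 1, 0.072 after quantile normalization and 0.064 after rescaling over transcripts with a gene. With Sprr2a1 left out of the sums it was 0.66. Sprr2a1 made up 58.5, 64.0 and 56.2% of the sum in R1ko and 62.9, 81.4 and 64.0% in WT, and Sprr1a 27.1, 22.3 and 27.2% in R1ko and 26.6, 12.7 and 26.0% in WT.

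**Figure D4:**
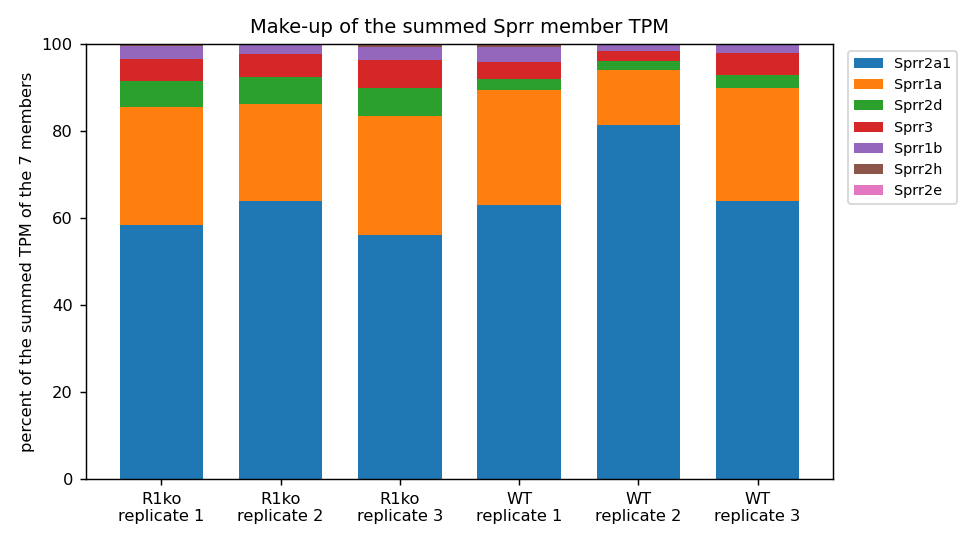
Share of each member in the summed TPM of the 7 members (y axis, percent), one bar per library, R1ko on the left. The Sprr2d band is 5.91 to 6.49% in R1ko and 1.88 to 2.81% in WT, and WT replicate 2 has the largest Sprr2a1 share, 81.4%.

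In R1ko colons the order of levels was Sprr2a1, Sprr1a, Sprr2d, Sprr3, Sprr1b, Sprr2h and Sprr2e. The ranges of Sprr2d and Sprr3 (25.1 ± 5.15 TPM, SD, n = 3) overlapped there. Within a library Sprr2d over Sprr3 was 1.02 to 1.18. In WT colons Sprr3 (15.8 ± 7.53 TPM) came before Sprr2d, and Sprr1b (9.06 ± 5.81 TPM) lay beside Sprr2d. The ranges of these neighbours overlapped across the WT libraries, with Sprr2d over Sprr3 at 0.553 to 0.769 within a library. WT replicate 2 was the lowest library for each of the 7 as deposited. Over the 6 libraries the highest value was 1.14 times the lowest in Sprr2a1, 3.42 times in Sprr1a and 5.50 times in Sprr2d.

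The tissue was checked with marker lists chosen with earlier results of these data known. The colon epithelial list summed to 20153, 18728 and 19416 TPM in R1ko and 18363, 14437 and 19999 TPM in WT. Genes of stratified squamous epithelium were present in every colon. Krt5, a basal-layer keratin, had 76.2, 73.7 and 59.7 TPM in R1ko and 104, 14.9 and 69.8 TPM in WT. Krt13, a keratin of internal squamous linings, had 120.0, 89.7 and 136.6 TPM in R1ko and 99.9, 33.9 and 88.4 TPM in WT.

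The 30 squamous markers summed to 2086, 1710 and 2064 TPM in R1ko, against 2224, 884 and 1793 TPM in WT. WT replicate 2 was low in this sum and in Sprr1a, Sprr1b and Sprr3 alike. In bulk tissue, fewer cells of a type and less RNA per cell cannot be told apart. For each 1000 TPM of the squamous sum, Sprr1a had 57.1, 53.8 and 64.2 TPM in R1ko and 53.4, 43.9 and 62.8 TPM in WT, and Sprr3 10.5, 13.1 and 15.0 TPM in R1ko and 8.13, 8.43 and 12.3 TPM in WT. Both ranges overlapped, unlike that of Sprr2d. The part of squamous tissue in the values of Sprr1a, Sprr1b and Sprr3 was not tested.

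**Figure D5:**
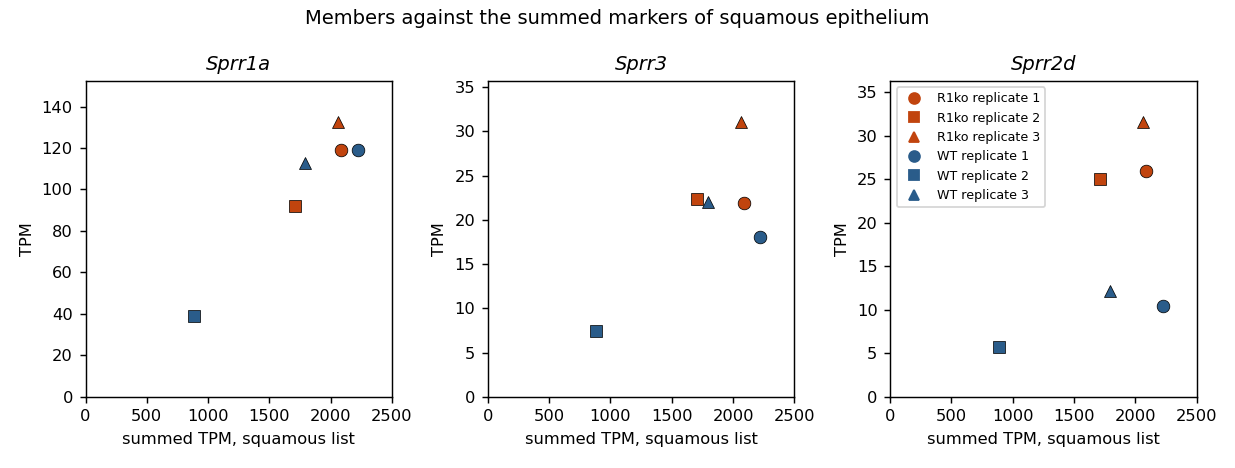
TPM of Sprr1a, Sprr3 and Sprr2d (y axes) against the summed TPM of 30 markers of squamous epithelium (x axes) in the 6 libraries, R1ko in red and WT in blue. For Sprr2d the 3 R1ko libraries lie above all WT libraries of similar squamous sums, and WT replicate 2 is at the lower left in each panel.

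None of the 29 squamous markers tested was called. Their median log2 fold change was 0.37, against 0.03 for all genes tested. Without WT replicate 2 it was −0.04, against −0.13 for all genes tested, and these all-gene values apply to the lists below too. Krt13 (0.76 ± 0.27, SE, limma adjusted p = 0.664) and Lypd3 (0.75 ± 0.31, limma adjusted p = 0.944) had the largest differences. Of the other envelope precursors, 24 of 25 tested had log2 fold changes above 0, with none called and a median of 0.57 (0.03 without WT replicate 2). Loricrin (Lor), the main envelope protein of skin, had 70.3, 87.8 and 93.4 TPM in R1ko and 76.9, 15.3 and 39.3 TPM in WT (limma adjusted p = 0.155). Prr9, a neighbour in the same complex, ran the other way at 1.503, 0.437 and 1.07 TPM in R1ko and 6.03, 1.45 and 5.43 TPM in WT (limma adjusted p = 0.072).

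Of 10 tested enzymes of envelope assembly none was called (median 0.55, and 0.06 without WT replicate 2), with Asprv1, the protease that processes filaggrin, at 0.81 ± 0.31 (SE, limma adjusted p = 0.837) and the kallikrein Klk7 at 0.65 ± 0.34. Of 14 tested hair follicle genes, 3 fell, namely Krt71, Krt25 and Tchh, where 0.175% of all genes were called lower in R1ko. The other 11 were not called, with Gata3, also a gene of other cell types, at −0.05 (limma adjusted p = 0.9999), and the median of the 14 was −1.64. Krt25, a keratin of the inner root sheath, averaged 2.35 ± 0.737 TPM in R1ko and 11.9 ± 9.02 TPM in WT (SD, n = 3 each, limma adjusted p = 0.0358). After scaling none of the hair genes was called. Without WT replicate 2 the calls of Krt71 (limma adjusted p = 0.0866) and Tchh (0.0802) were lost. Even so, 5 genes of the list, Krt25 among them, were called lower there, and the list median was −2.43. The hair list summed to 28.7, 21.5 and 35.9 TPM in R1ko and 201, 28.0 and 133 TPM in WT.

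Among 32 tested transcription factors known from studies of SPRR promoters or squamous tissue, none was called, and the median log2 fold change was 0.13. Cebpd, a C/EBP factor, had 58.6, 62.8 and 80.2 TPM in R1ko and 53.7, 32.5 and 52.3 TPM in WT (0.56 ± 0.22, SE, limma adjusted p = 0.892). Atf3, a stress-induced factor, averaged 39.5 ± 7.86 TPM in R1ko and 30.5 ± 18.6 TPM in WT (SD, n = 3 each, limma adjusted p = 0.9999).

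Of 23 tested cytokine and receptor genes upstream of epithelial SPRR induction, 1 was called, and the median was 0.10. Il1f6, which encodes the epithelial cytokine IL-36α, rose to 4.59, 2.50 and 5.25 TPM in R1ko, against 1.73, 0.742 and 1.1499 TPM in WT (1.42 ± 0.30, SE, limma adjusted p = 0.0293, 0.248 after scaling and 0.51 without WT replicate 2).

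Of 19 tested antimicrobial and bacteria-responsive genes of the gut, Duoxa2 and S100a9 rose, with a median of 0.24 over the list. Duoxa2, the maturation factor of the oxidase Duox2, had 15.4, 12.1 and 14.8 TPM in R1ko and 6.33, 4.24 and 6.68 TPM in WT (1.24 ± 0.24, SE, limma adjusted p = 0.0109, 0.00666 after scaling and 0.0861 without WT replicate 2). S100a9, a calprotectin subunit encoded in the same complex on chromosome 3 as the Sprr genes, had 23.5, 16.4 and 38.3 TPM in R1ko and 8.91, 5.23 and 11.4 TPM in WT (limma adjusted p = 0.00618, 0.272 after scaling and 0.51 without WT replicate 2). It was the sole gene called of the 12 S100 genes tested (median 0.18) and of the 4 neutrophil genes tested (median 1.19). The 11 listed neutrophil genes summed to 246.7, 229.3 and 257.8 TPM in R1ko and 201.4, 153.8 and 222.8 TPM in WT. The sums did not overlap (ratio of means 1.27). Of single genes tested, 3.17% lay wholly higher in R1ko as deposited. The part of neutrophils in the Sprr2d values was not tested.

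For the other tissues a dissection can carry along, the counts called were 1 of 10 adipocyte genes (Cfd, higher, median of the list 1.05), 0 of 14 skeletal muscle genes (median 1.40, and 0.34 without WT replicate 2), 0 of 8 smooth muscle genes (median −0.08) and 0 of 17 colon epithelial genes (median 0.18). Cfd, which encodes adipsin, had 70.0, 82.3 and 95.9 TPM in R1ko and 46.9, 13.8 and 33.7 TPM in WT (limma adjusted p = 0.00769, 0.287 after scaling and 0.138 without WT replicate 2). Myh4, a fast muscle myosin, had 0.579, 7.63 and 1.81 TPM in R1ko and 0.536, 0.102 and 0.140 TPM in WT (limma adjusted p = 0.0831), and Actn3, a sarcomere protein, averaged 17.1 ± 14.9 TPM in R1ko and 6.41 ± 7.75 TPM in WT (SD, n = 3 each). Of the smooth muscle genes, Actg2 was at −0.22 ± 0.19 and Myh11 at −0.18 ± 0.21 (log2 fold change, SE). Cdx2, a transcription factor of the intestinal epithelium, had 16.7, 12.8 and 18.8 TPM in R1ko and 9.65, 6.08 and 9.92 TPM in WT (limma adjusted p = 0.155), and Tff3, a goblet cell peptide, was at 0.42 ± 0.19 (log2 fold change, SE, limma adjusted p = 0.9999).

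The adipocyte sums were 322.2, 486.7 and 459.5 TPM in R1ko and 478.4, 86.2 and 205.2 TPM in WT. The skeletal muscle sums were 1554, 4162 and 2164 TPM in R1ko and 4127, 241.6 and 882.6 TPM in WT. The 2 sums were both lowest in WT replicate 2 and overlapped between the groups. Their part in the Sprr values was not tested.

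The genes whose level ran most like the member sum over the 6 libraries were Pank2, Rab5c, R3hcc1l, Slc25a10, Daxx, Znrd1, Itm2c, E2f4, Tbc1d22b and Krt4, with Pearson's r from 0.995 to 0.999. Krt4 is a keratin of internal squamous linings. Of 12791 genes compared, 930 had an r above 0.95. For Sprr2d alone, added after its values were seen, the closest were Fndc5, Atg7, Mxd1, Tmcc3 and Duoxa2 (r from 0.986 to 0.997), and 40 genes had an r above 0.95. After subtracting the group means, r was 0.907 to 0.988 for these 5. Among the members, r with Sprr1a was 0.93 for Sprr3, 0.91 for Sprr1b and 0.72 for Sprr2d, and r between Sprr2d and Sprr2a1 was 0.22. Libraries share their scaling, so these values describe likeness in 6 libraries only.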

How the data were processed

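Polyadenylated RNA of 6 colons was made into libraries with the SMARTer low-input kit, per the labels' protocols. The series' design text states paired reads of 50 bases. Per the submitters' processing notes, the authors used kallisto 0.43.1 and sleuth, with the build mm10, and the deposited values are TPM per transcript. Of 132639 lines, 1433 repeated a transcript with the same values and were used once. Transcripts without a value (43008) or without a gene (1380) were left out. TPM were summed per gene and compared as log2(TPM + 0.5) with limma 3.58.1 in R 4.3.3 (variance trend, Benjamini-Hochberg over all genes whose 6-library mean reached 1 TPM). The procedure was tested on simulated data. TPM keep no depth, so no counting interval is given. The members and the gene lists were chosen with earlier results of these data known. Named are all Sprr genes, from each list up to 4 called genes or the 2 with the largest difference, and the 10 genes most like the member sum. Krt5, Gata3 and the genes most like Sprr2d were added after their values were seen. The limma p-values set a mean difference against the spread between the libraries of these mice, with variances moderated over all genes. Coding sequences were aligned with Biopython 1.88. Protein sequences were not used here.

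Alternatives were pseudocounts of 0.1 and 1, no filter, a filter at 5 TPM, 3 other scalings, 2 variance models, the replicate number as a block, and each library left out in turn.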

Additional observations from a re-analysis of the deposited data

How the results depend on the processing

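The members were chosen on this contrast, so counts of members called describe the settings and support nothing. Sprr2d was called in 14 of 16 alternatives, and its log2 fold changes ran from 1.24 to 1.75. With no filter on low values or after rescaling over transcripts with a gene, 0 members were called, although the log2 fold changes of Sprr2d were 1.55 and 1.43. Leaving out single libraries gave 1 to 3 members called. The 3 were Sprr1b, Sprr2d and Sprr3 without WT replicate 1, and Sprr2d and Sprr3, 2 members, were called without WT replicate 3. Over 12 alternatives the log2 fold change ran from −0.03 to 0.77 in Sprr1a, 0.07 to 0.99 in Sprr1b, 0.31 to 1.06 in Sprr3 and −0.17 to 0.02 in Sprr2a1. The log2 ratio of the member sum moved by more than the replicate SD in 1 case, to 0.66 without Sprr2a1, an alternative chosen after seeing the data. The difference in the Sprr2a2 share moved in none by that measure. Its sign was not steady, at −0.035 percentage points without WT replicate 1 and 0.307 without WT replicate 3.

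Counts over all genes depended more on the setting. Against 38 genes called, there were 2 with no filter, 142 with a filter at 5 TPM, 6 after median-of-ratios scaling, 7 after quantile normalization, 4 after rescaling over transcripts with a gene and 83 with robust variances. Leaving out single libraries gave 20 to 298. Of genes in the lists, 7 were called in the main setting, 4 with a pseudocount of 0.1, 0 with no filter, 39 at 5 TPM, 1 after median-of-ratios scaling, 2 after quantile normalization, 0 after rescaling, 3 with no variance trend, 12 with robust variances and 5 to 62 with a library left out. Of transcripts, 13 were called, against 7 with a pseudocount of 0.1, 1 with no filter, 23 at 5 TPM and 1 to 61 with a library left out. The cause of these moves was not tested.

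With the replicate number as a block, 71 genes, 1 transcript and 1 member, Sprr2d, were called. Deviations from the group means of same-numbered libraries had correlations across genes of 0.0521, 0.132 and 0.184, and R1ko replicate 1 was closest to WT replicate 3, so the numbers do not show that the libraries are paired.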
